A study of Homo sapiens with 6 samples.

Results

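The 8 genes described here encode the ligands VEGFA, VEGFB, VEGFC and PGF and the receptors KDR, FLT1, NRP1 and NRP2 of the vascular endothelial growth factor (VEGF) system. They were chosen by name, with earlier results of these data known, by a rule that uses no measured value, and Ensembl gene IDs were matched to symbols through the GENCODE 44 annotation. Of the 8 genes, 7 were matched among the 35840 genes of the table, and KDR was not analysed here. The RNA came from Huh-7 cells, an established human hepatocellular carcinoma (HCC) line. The metformin group (replicates 1 to 3) received 20 mM metformin for 48 h, and the control group (replicates 4 to 6) received no metformin for 48 h. The concentration is that of the study's methods, and a different one appears elsewhere in the paper. In both groups the cells were starved before the treatment. Metformin is a biguanide that lowers blood glucose in type 2 diabetes. Polyadenylated RNA was sequenced, and each library has 1 FPKM value per gene, its fragments divided by exon length and by the library total.

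VEGF ligands are secreted dimers that bind receptor tyrosine kinases on the surface of endothelial cells and drive the growth and permeability of blood and lymphatic vessels. FLT1 (VEGF receptor 1), KDR (VEGF receptor 2) and FLT4 (VEGF receptor 3) are the kinases, and the neuropilins NRP1 and NRP2 are coreceptors without a kinase domain. In HCC, a tumor rich in vessels, the tumor cells are a known source of VEGFA, and drugs that block VEGFA or its receptors are used in treatment.

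The libraries held 17241997 to 18464783 fragments in the metformin group and 17192221 to 17835152 in the control group, so that 1 fragment in a gene of 1 kb was worth 0.0542 to 0.0582 FPKM. Mean Pearson correlations to the other libraries of the same group across genes were 0.991 to 0.993, so no library stood apart by this measure. Such a correlation does not exclude differences in single genes. In PGF metformin replicate 3 had 9.81 FPKM, against 3.64 and 5.01 FPKM in the other metformin libraries. In VEGFB it lay between them, at 18.0 FPKM against 17.6 and 19.0 FPKM. Of the 13094 genes whose mean reached 1 FPKM in at least 1 group, 639 were upregulated and 1401 downregulated differentially expressed genes (DEGs, limma adjusted p under 0.05 and a log2 fold change above 1 or below -1). When the libraries were scaled with TMM-type factors, the split was 1103 upregulated and 963 downregulated, and 42.0% of genes were higher and 31.7% lower at an adjusted p under 0.05. The liver identity of the line was visible in ALB at 714 ± 74.1 FPKM in the metformin group and 1145 ± 35.3 in the control group (SD, n = 3 each). However, 7 of the 9 hepatocyte and hepatoma markers were lower with metformin and none was higher. Among all genes tested in the same fit, without scaling factors, 44.1% were lower and 28.9% higher. With TMM-type factors 6 of the 9 markers were lower and none higher. The summed level of the 9 markers was 1260.4 to 1449 FPKM in the metformin group and 2469.8 to 2607 FPKM in the control group. The part of this shift in the results below was not tested. Endothelial markers were near the floor: none of the 8 measured reached a mean of 1 FPKM, their sum was 0.939 to 1.25 FPKM in the metformin group and 0.753 to 1.16 FPKM in the control group, and TEK was at 0 in all 6 libraries. In bulk RNA, fewer cells that express a gene and less RNA per cell cannot be told apart.

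Metformin went with a higher level of all 4 ligands and of NRP2, and with a lower level of NRP1. Of the 6 VEGF genes that reached the minimum level, 5 were higher and 1 was lower at an adjusted p under 0.05, against 28.9% higher and 44.1% lower among all genes tested. VEGFA and PGF were upregulated DEGs, a class that held 4.88% of all genes tested, and no VEGF gene was a downregulated DEG, a class that held 10.7%. The median log2 fold change of the 6 genes was 0.66, against -0.14 for all genes tested. FLT1, the 7th measured gene, was under 1 FPKM and was examined in a fit without the minimum. In all 7 genes the metformin and control libraries did not overlap, with 6 higher and 1 lower. Among all genes tested, 30.7% were higher without overlap and 46.0% lower without overlap, and 15.6% of the 31777 genes without the minimum were higher without overlap.

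**Figure D1:**
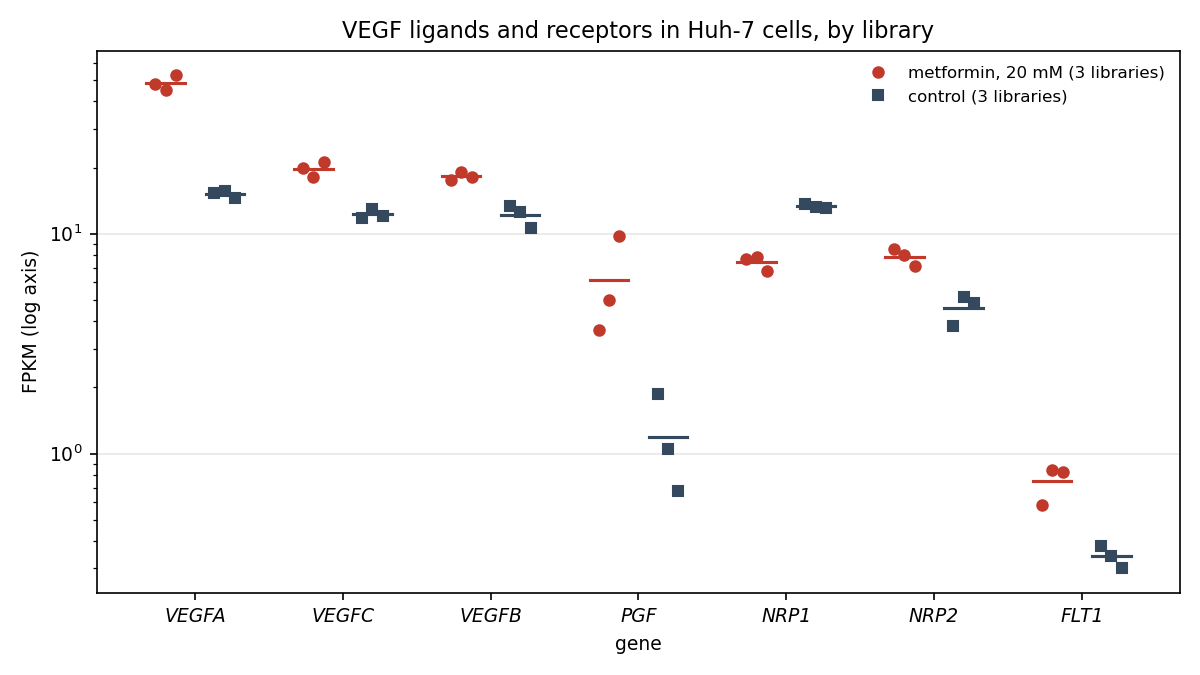
FPKM (log axis) of the 7 measured VEGF genes in each library, with metformin replicates 1 to 3 (circles) left of control replicates 4 to 6 (squares) for each gene. Points are libraries and horizontal lines are group means; the metformin points lie above the control points in 6 genes and below them in NRP1, and PGF has the widest spread for its level.

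VEGFA, the principal driver of blood vessel growth and a ligand of FLT1 and KDR, had the highest level of the 7 genes in both groups. Its FPKM was 48.2, 45.0 and 52.5 in metformin replicates 1 to 3, against 15.3, 15.6 and 14.5 in control replicates 4 to 6. Every metformin library was far above every control library, and the libraries within a group lay close together. The means were 48.6 ± 3.74 FPKM in the metformin group and 15.1 ± 0.558 FPKM in the control group (SD, n = 3 each), a ratio of 3.21, and the log2 fold change of log2(FPKM + 1) was 1.62 (SE 0.067, limma adjusted p = 2.55e-06). These values rest on 12004 to 13064 fragments per library in the metformin group and 3596 to 4007 in the control group. By log2 fold change VEGFA stood at position 164 from the top of the 13094 genes. The study names VEGFA as upregulated on these same libraries, so the direction seen here adds no independent evidence. The gene (ENSG00000112715) lies on the plus strand at chr6:43770184-43786487 of GRCh38, and 188 bases of its exons overlap an antisense noncoding gene that was not analysed here. Whether the counting used strand was not stated.

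VEGFC, whose mature form binds FLT4 and KDR and drives the growth of lymphatic vessels, rose less than VEGFA. It had 19.99, 18.1 and 21.2 FPKM in the metformin libraries, against 11.8, 12.95 and 12.1 FPKM in the control libraries. The groups did not overlap, and the lowest metformin library was well above the highest control library. Its mean was 19.8 ± 1.54 FPKM with metformin and 12.3 ± 0.601 FPKM without (SD, n = 3 each), a ratio of 1.61, with a log2 fold change of 0.64 (SE 0.071, limma adjusted p = 0.00013). VEGFC (ENSG00000150630) is on the minus strand at chr4:176683538-176792922.

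VEGFB binds FLT1 but not KDR, and is known more for effects on heart muscle and lipid handling than for vessel growth. Its FPKM was 17.6, 19.0 and 18.0 in the metformin group, against 13.4, 12.5 and 10.6 in the control group. The gap between the groups was wider than the range within either group. The log2 fold change was 0.55 (SE 0.086, limma adjusted p = 0.000776), the smallest of the 4 ligands, and the ratio of the means was 1.499. The gene (ENSG00000173511, plus strand, chr11:64234584-64239264) is short, and each library held 281 to 543 of its fragments.

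PGF, the placental growth factor, is a ligand of FLT1 that is low in most adult tissues. It had 3.64, 5.01 and 9.81 FPKM in metformin replicates 1 to 3, against 1.86, 1.04 and 0.673 FPKM in control replicates 4 to 6. The groups did not overlap, but metformin replicate 3 was far above replicates 1 and 2, and control replicate 4 was above replicates 5 and 6. The highest library exceeded the lowest 2.69 times within the metformin group and 2.76 times within the control group, the widest spread of the 4 ligands. Means were 6.15 ± 3.24 FPKM with metformin and 1.19 ± 0.606 FPKM without (SD, n = 3 each), a ratio of 5.16. The log2 fold change was 1.65 (SE 0.32, 95% interval 0.90 to 2.40, limma adjusted p = 0.00243), and without metformin replicate 3 it was 1.30. With voom on fragments rebuilt from the FPKM, which adds only a fraction of a fragment to each count, it was 2.35. In the main fit, 1 FPKM added to each value shrinks the change of a gene near 1 FPKM. The fragments were 376, 551 and 1008 in the metformin libraries and 193, 111 and 69 in the control libraries. PGF (ENSG00000119630) is on the minus strand at chr14:74941834-74955626.

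FLT1, the kinase receptor shared by VEGFA, VEGFB and PGF, has a soluble form that traps ligand. Its FPKM was 0.584, 0.840 and 0.821 in the metformin group, against 0.379, 0.344 and 0.301 in the control group. All 3 metformin libraries were above all 3 control libraries, with replicate 1 the lowest of the metformin group. The level was near the floor in both groups, with 127, 195 and 178 fragments in the metformin libraries and 83, 77 and 65 in the control libraries. In the fit without the minimum level the log2 fold change was 0.38 (SE 0.091, limma adjusted p = 0.0198), in a table where 12.3% of genes were higher at that threshold. This call was lost without metformin replicate 2 (adjusted p = 0.0530), metformin replicate 3 (0.0526), control replicate 5 (0.0542) or control replicate 6 (0.0594). On rebuilt fragments, to which no 1 FPKM is added, the log2 fold change of FLT1 was 1.11 (95% interval 0.68 to 1.54, voom adjusted p = 0.000459). In that fit 25.1% of genes were higher. FPKM per gene does not separate the soluble from the membrane form. FLT1 (ENSG00000102755) is on the minus strand at chr13:28300346-28495145.

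NRP1, which binds the heparin-binding forms of VEGFA and the semaphorin SEMA3A, was the single VEGF gene that fell. Its FPKM was 7.66, 7.84 and 6.77 in the metformin libraries, against 13.6, 13.3 and 13.1 in the control libraries. The metformin libraries lay well below the control libraries, which were almost level with each other. Mean FPKM was 7.42 ± 0.574 with metformin and 13.3 ± 0.254 without (SD, n = 3 each), a ratio of 0.557, and the log2 fold change was -0.77 (SE 0.065, limma adjusted p = 3.9e-05). NRP1 (ENSG00000099250) spans chr10:33177492-33336262 on the minus strand.

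NRP2, the neuropilin known as a coreceptor of VEGFC and a receptor of SEMA3F, moved the other way. It had 8.48, 7.98 and 7.16 FPKM with metformin, against 3.81, 5.13 and 4.83 FPKM in control replicates 4 to 6. The lowest metformin library was above the highest control library, and control replicate 4 was the lowest of all. The means were 7.87 ± 0.665 FPKM in the metformin group and 4.59 ± 0.690 FPKM in the control group (SD, n = 3 each), a ratio of 1.71, with a log2 fold change of 0.67 (SE 0.11, limma adjusted p = 0.000814). NRP2 (ENSG00000118257) is on the plus strand at chr2:205681990-205798133. Antisense noncoding genes share 561 exon bases with NRP1 and 147 with NRP2, and both were at or below 0.074 FPKM in every library.

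**Figure D2:**
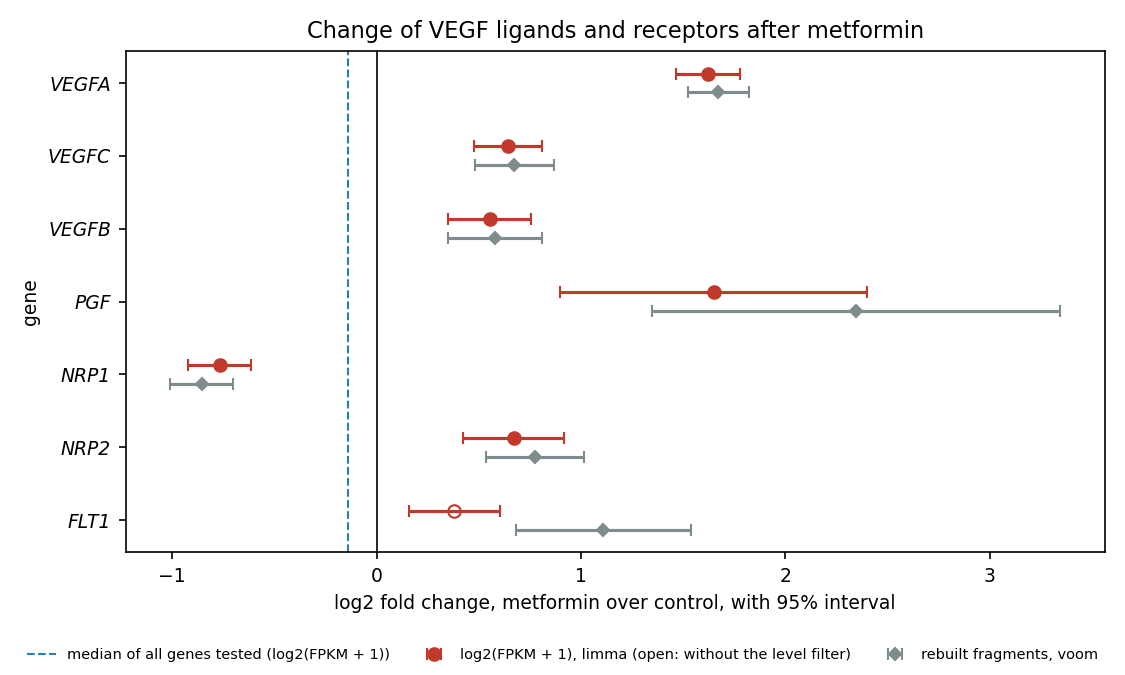
Log2 fold change, metformin over control, with 95% interval for the 7 measured VEGF genes, from limma on log2(FPKM + 1) (circles, open for the fit without the minimum level) and from voom on rebuilt fragments (diamonds), n = 3 libraries a group. The intervals of NRP1 lie below 0 and all others above 0, and the dashed line marks the median of all genes tested, -0.14.

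Promoter windows of the genes that rose are shown because members that moved together can be compared for shared short motifs. Windows of 250 bases before the start came from RefSeq (GRCh38.p14), and 6 of the 8 genes matched, all but VEGFA and NRP1. The windows run 5′ to 3′ on the strand of the gene, and capitals mark matches on either strand to GGGCGG (SP1 box), TGACGTCA (cyclic AMP response element) or GCGTG (a form of the hypoxia response core). Overlapping matches merge into 1 run of capitals. They lie at chr11:64234334-64234583 (VEGFB), chr4:176792923-176793172 (VEGFC), chr14:74955598-74955847 (PGF, the second of 2 listed starts), chr13:28495129-28495378 (FLT1) and chr2:205682251-205682500 (NRP2).
VEGFB: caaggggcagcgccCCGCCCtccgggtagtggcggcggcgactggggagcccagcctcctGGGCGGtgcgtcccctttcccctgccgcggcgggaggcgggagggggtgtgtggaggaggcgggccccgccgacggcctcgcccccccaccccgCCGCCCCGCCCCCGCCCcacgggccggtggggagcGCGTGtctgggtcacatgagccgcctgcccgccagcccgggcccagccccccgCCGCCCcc
VEGFC: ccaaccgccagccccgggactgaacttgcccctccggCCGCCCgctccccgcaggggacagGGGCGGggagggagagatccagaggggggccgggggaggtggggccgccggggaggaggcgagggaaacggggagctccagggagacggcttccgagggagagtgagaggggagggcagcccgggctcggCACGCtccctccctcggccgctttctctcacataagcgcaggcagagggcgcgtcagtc
PGF: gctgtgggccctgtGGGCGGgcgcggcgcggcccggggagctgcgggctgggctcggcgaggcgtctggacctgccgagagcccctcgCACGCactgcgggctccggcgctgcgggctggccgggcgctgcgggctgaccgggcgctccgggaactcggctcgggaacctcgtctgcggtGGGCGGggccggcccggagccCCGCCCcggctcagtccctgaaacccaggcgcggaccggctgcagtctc
FLT1: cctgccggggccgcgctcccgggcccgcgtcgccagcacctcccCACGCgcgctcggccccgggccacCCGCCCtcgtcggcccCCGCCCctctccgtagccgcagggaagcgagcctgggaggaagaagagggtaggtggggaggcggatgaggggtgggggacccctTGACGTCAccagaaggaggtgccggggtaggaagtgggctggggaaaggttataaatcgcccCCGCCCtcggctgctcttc
NRP2: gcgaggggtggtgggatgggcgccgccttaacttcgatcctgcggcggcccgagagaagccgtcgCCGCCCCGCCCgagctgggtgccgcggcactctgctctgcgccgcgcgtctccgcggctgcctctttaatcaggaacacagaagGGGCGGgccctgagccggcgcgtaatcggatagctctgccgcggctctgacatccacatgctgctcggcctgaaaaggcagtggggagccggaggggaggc

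All 5 windows were rich in G and C, and each held the SP1 box. VEGFB had 6 SP1 boxes, VEGFC 2, PGF 3 at its second start, FLT1 3 and NRP2 3, and GGGCGG occurs in 42.6% of the 35116 promoter windows of the RefSeq table. GCGTG was found in the windows of VEGFB, VEGFC, PGF and FLT1 but not in that of NRP2, against 32.2% of all windows. The window at the first start of PGF, which is not printed, held 2 SP1 boxes and no GCGTG. The cyclic AMP response element was found in FLT1, against 1.65% of all windows. None of the windows held ACGTG (18.5% of all), TGANTCA (6.57%), TGATGCAA (0.772%) or TCAAGGTCA (0.319%), the cores searched for hypoxia-inducible factor, AP-1, ATF4 and the estrogen-related receptors. A match describes letters in the window and shows no binding.

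Levels of different genes can be compared per length, and the order of the 7 genes differed between the groups. In the metformin group VEGFA was highest, followed by VEGFC and VEGFB, then NRP2, NRP1 and PGF, and FLT1 was lowest. The ranges of VEGFC and VEGFB overlapped in that group, as did those of NRP2 and NRP1 and those of NRP1 and PGF. In the control group the order was VEGFA, NRP1, VEGFC, VEGFB, NRP2, PGF and FLT1, and only VEGFC and VEGFB overlapped among neighbours. NRP1, next to VEGFA in the control group, lay below VEGFB and VEGFC in every metformin library on the deposited FPKM.

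The length behind the FPKM affects this order. The length by which the deposited values divide can be read from their steps. For VEGFA it was 14431 bases, the merged length of all its exons in GENCODE 44 and 3.999 times its canonical transcript, and for NRP1 and NRP2 it was also the merged exon length. For VEGFC it was 1.07 times the canonical transcript and for VEGFB 0.856 times, both below the merged exon length of GENCODE 44. Divided by the canonical length instead, a setting chosen after the data were seen, the level of VEGFA was 194 ± 15.0 FPKM with metformin and 60.5 ± 2.23 FPKM without (SD, n = 3 each). On the same scale PGF was at 21.1 FPKM with metformin and 4.08 FPKM without, close to VEGFC with metformin at 21.2 FPKM. This scale takes every fragment as part of the canonical transcript. The length used covers 88.5% of the gene span of VEGFA and 43.2% of that of PGF, so both levels can be overstated. Per canonical length NRP1 was above VEGFB in metformin replicate 1, at 15.7 against 15.1 FPKM, and below it in replicates 2 and 3, so this step of the order did not hold in every library. NRP1 and NRP2, whose merged lengths exceed the canonical ones 2.04 and 2.09 times, kept about the same ratio to each other. The ratio of mean FPKM between the groups does not depend on this length. The log2 fold change of log2(FPKM + 1) does depend on it, through the added 1, most for genes of low level. Per canonical length FLT1 averaged 1.32 FPKM with metformin, so its place under the minimum level also depends on the length.

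The summed ligands stood higher with metformin, and VEGFA took a larger part of their sum. Summed FPKM of the 4 ligands was 89.5, 87.2 and 101.5 in the metformin group, against 42.3, 42.1 and 37.8 in the control group. VEGFA made up 53.9, 51.7 and 51.7% of this sum with metformin, against 36.1, 37.0 and 38.3% without. The groups did not overlap, and the difference of 15.3 percentage points had an exact two-sided permutation p of 0.1, the smallest that 3 against 3 libraries can give. Per canonical transcript, which takes every fragment as canonical, the share was 77.2 ± 2.60% with metformin and 68.7 ± 1.86% without (SD, n = 3 each). That was a difference of 8.51 points, and as a share of fragments, with no division by length, the difference was 6.50 points. The share of PGF overlapped between the groups (exact permutation p = 0.2).

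The neuropilins changed in proportion more than in sum. NRP1 made up 47.5, 49.6 and 48.6% of NRP1 plus NRP2 in the metformin libraries, against 78.1, 72.1 and 73.1% in the control libraries. The 3 metformin libraries fell together, well below the control libraries, with a difference of -25.9 points and again the smallest exact permutation p, 0.1. The sum of both was 16.1, 15.8 and 13.9 FPKM with metformin, against 17.4, 18.4 and 17.9 FPKM without. NRP2 per NRP1 was 1.11, 1.02 and 1.06 with metformin and 0.280, 0.386 and 0.369 without.

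**Figure D3:**
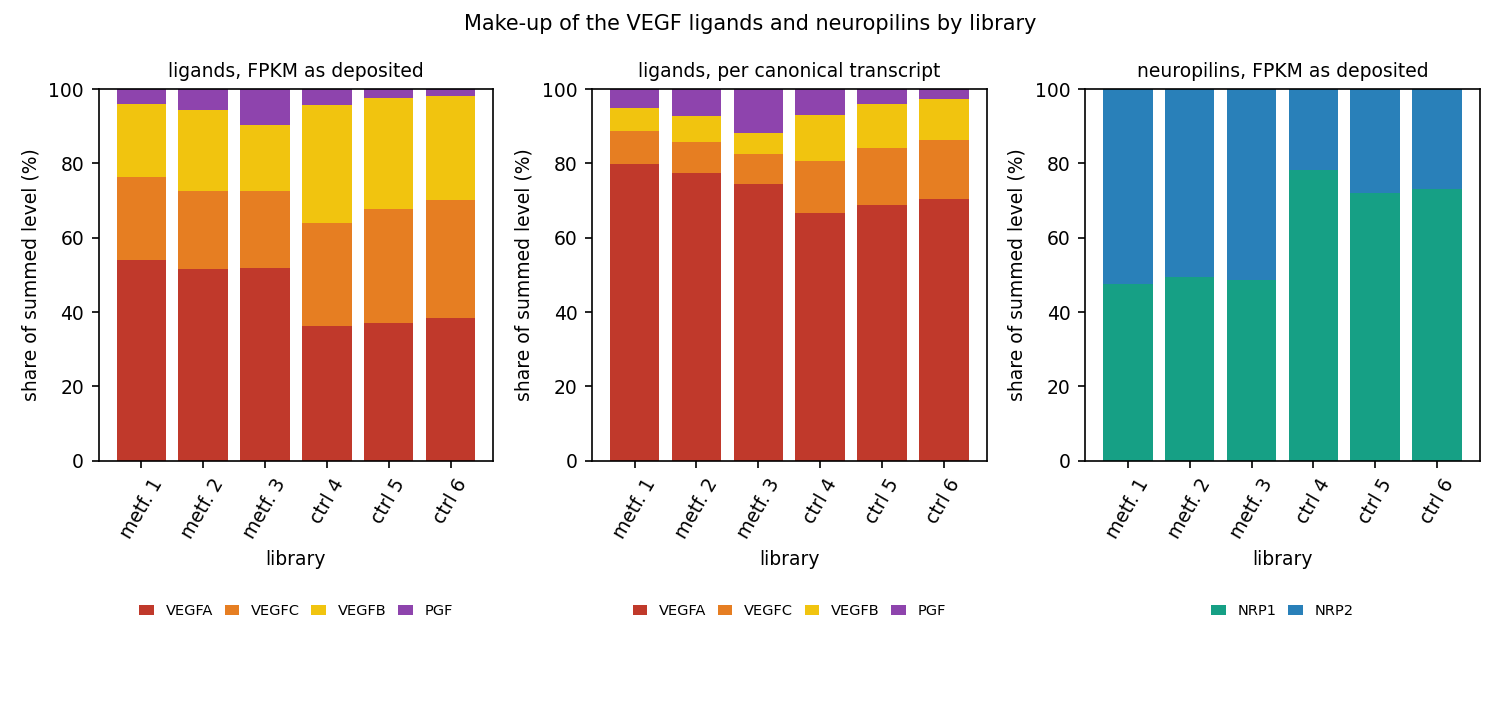
Share (%) of each gene in the summed level of the 4 ligands (left, FPKM as deposited; middle, per canonical transcript) and of the neuropilins (right), with 1 bar per library and metformin left of control. VEGFA takes 51.7 to 53.9% of the ligand FPKM with metformin and 36.1 to 38.3% in control libraries, and NRP1 takes under 50% of the neuropilin FPKM in every metformin library.

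Genes around the VEGF system were read from lists, and the counts below stand against 28.9% higher and 44.1% lower among all genes tested, or 42.0% and 31.7% with TMM-type factors. Of the rest of the VEGF family, VEGFD, a ligand of FLT4, held 17, 31 and 25 fragments in the metformin libraries and 29, 30 and 11 in the control libraries, and FLT4 held none with metformin and 1 fragment in 1 control library. Neither reached the minimum level. Of the genes that process VEGFC and VEGFD, 3 were tested, with 1 higher, 1 lower and 1 that did not pass. PCSK5, a proprotein convertase, was higher at 4.40 ± 2.13 FPKM with metformin and 1.65 ± 0.358 FPKM without (log2 fold change 0.97). It had 3.13, 3.20 and 6.85 FPKM in metformin replicates 1 to 3, so replicate 3 was far above the others. ADAMTS3, the protease that cleaves VEGFC, was lower at 1.01 ± 0.0485 and 2.06 ± 0.117 FPKM (-0.61), and FURIN did not pass (-0.14).

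Of 8 tested genes listed as inhibitors or matrix binders of VEGF, 6 were lower with metformin, none higher and 2 did not pass. Among all genes tested 44.1% were lower and 28.9% higher. The median log2 fold change of the list was -1.05, against -0.14 for all genes tested. With TMM-type factors 6 were lower and 2 higher. CCN2, a matrix protein that binds VEGFA, averaged 67.0 ± 11.99 FPKM in the metformin group and 255.7 ± 10.5 FPKM in the control group (-1.93). THBS1, the angiogenesis inhibitor thrombospondin, was at 16.3 ± 2.21 and 46.2 ± 2.07 FPKM (-1.46), and HSPG2, the basement membrane proteoglycan perlecan, at 18.5 ± 0.279 and 52.6 ± 4.67 FPKM (-1.46). SERPINF1 and AGT did not pass.

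The neuropilin partners are the class 3 semaphorins, the plexins and the adaptor GIPC1. Of 10 tested, 3 were higher, near the 28.9% of all genes tested, 2 were lower, against 44.1%, and 5 did not pass. PLXNA3, a plexin that pairs with neuropilins, was at 9.65 ± 0.519 FPKM with metformin and 3.71 ± 0.362 FPKM without (log2 fold change 1.18), while PLXND1 (0.37) and SEMA3B (0.34) rose less. SEMA3E, a ligand of PLXND1, was at 6.75 ± 1.21 and 19.3 ± 2.21 FPKM (-1.40), and PLXNA1 fell as well (-0.66). With TMM-type factors 5 were higher and 2 lower.

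Of the adaptors and enzymes downstream of VEGF receptors, which serve many other receptors too, 26 were tested, with 11 higher, 7 lower and 8 that did not pass, against 28.9% higher and 44.1% lower among all genes tested. With TMM-type factors 17 were higher and 3 lower, against 42.0% and 31.7%. The largest rises were in the adaptors SHC2 (log2 fold change 0.95), NCK1 (0.93) and NCK2 (0.81). The largest falls were in the adaptor SHC1 (-0.95), the phosphatase PTPN11 (-0.50) and the heat shock protein HSPB1 (-0.45), whose libraries overlapped between the groups. SHC2 was at 30.6 ± 0.496 FPKM with metformin and 15.5 ± 2.14 FPKM without, and SHC1 at 25.2 ± 2.34 and 49.4 ± 1.48 FPKM.

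Regulators of VEGFA transcription gave 8 higher, 4 lower and 3 that did not pass, of 15 tested. Among all genes tested 28.9% were higher and 44.1% lower. Under TMM-type factors 9 of the regulators were higher and 3 lower, against 42.0% and 31.7% of all genes. PPARGC1A, a coactivator, was at 2.65 ± 0.173 FPKM with metformin and 0.641 ± 0.112 FPKM without (log2 fold change 1.16), and its partner ESRRA, an estrogen-related receptor, at 20.8 ± 0.703 and 10.3 ± 0.641 FPKM (0.94). TFAP2A rose by 0.64, with 1.72, 1.84 and 2.93 FPKM in metformin replicates 1 to 3 and a mean of 0.999 FPKM in the control group. VHL (-1.36), EGLN3 (-1.36) and HIF1AN (-0.86), which mark hypoxia-inducible factor (HIF) for decay or block its activity, were lower. Of the other EGLN genes, EGLN2 was lower (-0.59), at 0.366 ± 0.0905 FPKM with metformin and 1.06 ± 0.0588 FPKM without. EGLN1 did not pass (-0.02), at 36.1 ± 7.15 FPKM with metformin and 36.2 ± 1.77 FPKM without. PPARGC1A, TFAP2A and EGLN2 reached the minimum level only in the group where each was higher. HIF1A itself did not pass, at 146 ± 23.8 FPKM with metformin and 156 ± 12.4 FPKM without. Its partner ARNT was higher (0.37, limma adjusted p = 0.000819). EPAS1, another HIF alpha subunit, was higher as well (0.43, limma adjusted p = 0.0289). However, EPAS1 did not pass without control replicate 5 (0.0800), without control replicate 6 (0.0918) or in the fit with no minimum level (0.0834). Of 6 regulators of VEGFA mRNA decay, ZFP36L2 (1.28) and ZFP36L1 (1.06), which bind AU-rich elements and promote decay, were higher, DICER1 was lower (-0.25) and 3 did not pass. With TMM-type factors 4 were higher and none lower, and without control replicate 5 the number of lower genes was 2 in place of 1.

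VEGFA is a known target of HIF. Of 14 other HIF targets tested, 4 were higher, 6 lower and 4 did not pass. In this fit the shares were close to the 28.9% higher and 44.1% lower among all genes tested. The counts were 5 higher and 6 lower with TMM-type factors, against 42.0% and 31.7% of all genes. The number of lower targets was 8 with voom and 9 without control replicate 4. CA9, PFKFB4 and ANGPTL4 reached the minimum level in the control group only. The peptide hormone gene ADM was at 21.4 ± 1.10 FPKM with metformin and 7.97 ± 0.494 FPKM without (log2 fold change 1.32), followed by MXI1 (0.89) and KDM3A (0.83). PFKFB4, an enzyme that controls glycolysis, was at 0.465 ± 0.0779 and 5.69 ± 1.39 FPKM (-2.17), followed by CA9 (-1.52) and P4HA1 (-1.18). CA9 held 0, 1 and 2 fragments in the metformin libraries and 32, 78 and 69 in the control libraries.

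**Figure D4:**
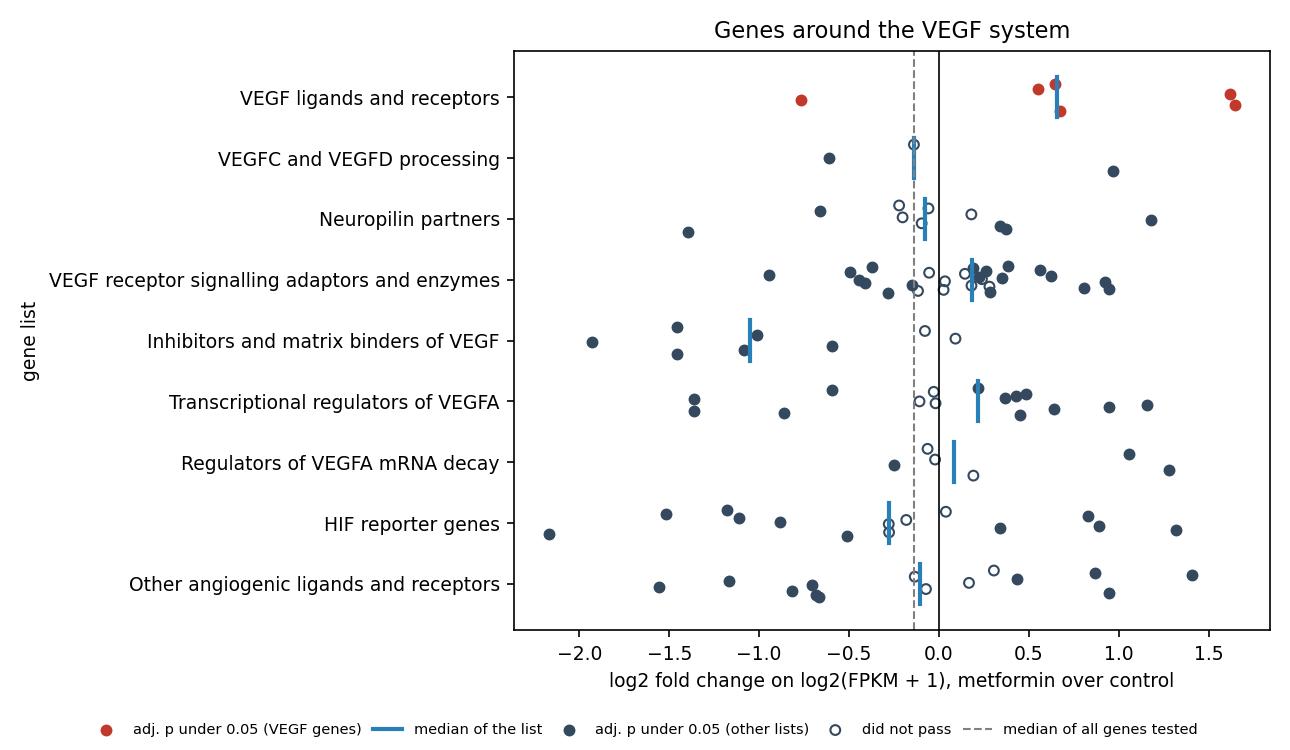
Log2 fold change, metformin over control, of each tested gene in the VEGF group and 8 lists around it (rows), with filled points at limma adjusted p under 0.05 and open points above it. Blue bars are list medians and the dashed line is the median of all genes tested, -0.14; the list of inhibitors and matrix binders has its median at -1.05 and no filled point above 0.

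The genes most like VEGFA and PGF across the 6 libraries were found by the root-mean-square (RMS) difference of log2(FPKM + 1), centred on the control mean, among 6788 protein-coding genes. Nearest to VEGFA were OTUD1 (RMS difference 0.0336), GPR37 (0.0447), PHF3 (0.0721), CLGN (0.0816) and CABLES1 (0.0831). OTUD1, a deubiquitinase, had 17.9, 17.7 and 20.6 FPKM in the metformin libraries, against 5.40, 5.54 and 5.37 FPKM in the control libraries. Like VEGFA, it was even within each group and highest in metformin replicate 3. Nearest to PGF were CDR2L (0.0928), HS3ST3B1 (0.116), HS3ST3A1 (0.147), TSC22D3 (0.182) and RAMP1 (0.238). CDR2L had 17.0, 21.2 and 38.8 FPKM with metformin, against 8.34, 6.72 and 5.71 FPKM without. All 5 genes nearest to PGF were highest in metformin replicate 3 and, among the controls, in replicate 4, as PGF was. The genes were chosen by likeness over these same 6 libraries, so these shared patterns, also that of OTUD1, largely follow from the choice.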

How the data were processed

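The authors sequenced polyadenylated RNA of 6 Huh-7 libraries and deposited FPKM per gene; GRCh38 and Cufflinks 2.1.1 are named in the submitters' processing notes, but no source used here names the aligner. Whole fragments were rebuilt from the FPKM steps for all 31777 genes above 0, with a tolerance of 1e-08. The length came from GENCODE 44 where its merged exons gave whole fragments in all libraries (14815 genes) and otherwise from the steps themselves, as the length nearest to GENCODE 44 that did so. The 13094 genes whose mean reached 1 FPKM in at least 1 group were tested on log2(FPKM + 1) in R 4.3.3 (limma 3.58.1, trended variance) with Benjamini-Hochberg adjustment over all genes tested. This fold change understates that of low genes. All tests were two-sided. The script was tested on simulated data. Shares were compared with an exact permutation test (scipy 1.17.1).

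Alternatives were a pseudocount of 0.1, no minimum, quantile normalization, TMM-type and median-of-ratios factors, voom on fragments (at least 10 in at least 3 libraries) and leaving out each library. The main fit did not use a count model because the deposited unit is FPKM. The genes named are the 8 VEGF genes, up to 3 called members of each list in each direction, and the 5 genes nearest to VEGFA and to PGF (mean of at least 5 FPKM). Other members named were chosen after their values were seen. The VEGF genes and lists were chosen with earlier results of these data known. The methods describe RNA as pooled from cells and the sources do not say that the libraries came from separate cultures, so p-values measure the spread between libraries, which may be technical.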

Additional observations from a re-analysis of the deposited data

How the results depend on the processing

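All 12 alternatives kept the direction and the call of VEGFA, VEGFB, VEGFC, PGF, NRP1 and NRP2. Over them the log2 fold change was 1.56 to 1.87 for VEGFA, 0.46 to 0.79 for VEGFB, 0.59 to 0.89 for VEGFC, 1.30 to 2.35 for PGF, -0.86 to -0.54 for NRP1 and 0.57 to 0.89 for NRP2. Leaving out each library gave 1.56 to 1.67 for VEGFA, 1.30 to 1.91 for PGF and -0.80 to -0.71 for NRP1. FLT1 ranged from 0.34 to 0.45 (adjusted p 0.0150 to 0.0594) and lost its call when any of 4 of the 6 libraries was left out. The difference in the VEGFA share was 14.5 to 15.9 points without 1 library, 8.51 per canonical length and 6.50 as a share of fragments. That in the NRP1 share was -27.0 to -24.1 points over the same alternatives.

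The number of DEGs was 2040, and 2004 to 2128 when a library was left out. It was 3420 with a pseudocount of 0.1 (998 higher, 2422 lower) and 4962 with voom on fragments (1166 higher, 3796 lower). Upregulated DEGs numbered 639, against 1103 with TMM-type and 1058 with median-of-ratios factors, and downregulated DEGs 1401, against 924 with quantile normalization. The median of all genes was -0.14, 0.09 with TMM-type factors, 0.08 with median-of-ratios factors, -0.01 with quantile normalization and -0.26 with voom. Of 216 list counts, 200 were within 1.5 times the main count. The depth leaves FLT1 with 65 to 195 fragments per library. No paired analysis was possible because the groups share no replicate number (1 to 3 and 4 to 6).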

Other observations

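Of 14 tested genes for other angiogenic ligands and receptors, 4 were higher with metformin, 6 lower and 4 did not pass, close to the 28.9% higher and 44.1% lower among all genes tested, with a median log2 fold change of -0.10 against -0.14 for all genes tested. With TMM-type factors 7 were higher and 6 lower. EFNA1, a membrane-bound ephrin, was at 83.2 ± 5.54 FPKM in the metformin group and 30.7 ± 1.35 FPKM in the control group (SD, n = 3 each; log2 fold change 1.41). EFNB2, an ephrin of arterial endothelium, was at 8.10 ± 3.49 and 3.52 ± 0.207 FPKM (0.94), with 485, 485 and 932 fragments in metformin replicates 1 to 3. PDGFA, a growth factor for mesenchymal cells, was at 7.71 ± 0.893 and 3.77 ± 0.526 FPKM (0.87).

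EDN1, which encodes the vasoconstrictor endothelin, was at 1.49 ± 0.404 FPKM with metformin and 6.33 ± 1.01 FPKM without (log2 fold change -1.56). PDGFRA, a receptor of PDGFA, was at 0.236 ± 0.0901 and 1.78 ± 0.133 FPKM (-1.17). PDGFA was higher, but PDGFB (-0.67) and PDGFC (-0.69) of the same family were lower, and PDGFD did not pass (-0.13). ANGPT1, a ligand of TEK, was at 2.19 ± 0.352 and 4.60 ± 0.441 FPKM (-0.82). FGF2 was at 1.78 ± 0.618 and 1.22 ± 0.060 FPKM, and it did not pass (adjusted p = 0.104).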
